A study of Mus musculus with 12 samples.

Results

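Hepatocyte lineage transcription factors were followed across the 4 treatment groups of an RNA sequencing experiment on AML12 cells, an immortalised mouse hepatocyte line derived from a mouse carrying a transgene for human TGF-alpha. The 8 factors were chosen by symbol: Hnf4a, Foxa1, Foxa2, Foxa3, Cebpa, Cebpb, Onecut1 and Prox1. The table of 24824 genes had a row for 6 of them, and Onecut1 and Prox1 were not analysed here. Of the 6, Foxa2, Cebpa and Cebpb had a mean of at least 1 FPKM (fragments scaled by gene length and library size) over the 12 libraries and entered the tests, whereas Hnf4a, Foxa1 and Foxa3 fell below that filter. The filter kept 10615 genes.

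Group A was untreated. Group B received 300 μM CuCl2 with 40 nM elesclomol (ES), an ionophore that carries copper into cells (Cu/ES). Group C received the same Cu/ES plus 1000 μM taurocholic acid (TCA), a conjugated bile acid, and group D received 1000 μM TCA alone. All groups were the same cell line in the same medium, ran for 24 h and had 3 libraries each. It was not stated whether the libraries came from separate cultures, so the p-values measure the spread between these libraries, which may be technical.

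HNF4A is a nuclear receptor that keeps many hepatocyte genes active. FOXA1, FOXA2 and FOXA3 are forkhead proteins that open chromatin at liver enhancers. CEBPA and CEBPB are leucine zipper proteins that bind the same kind of DNA element. CEBPA is linked to the quiescent, metabolic state of hepatocytes, and CEBPB is an early response gene of stress, cytokine signalling and regeneration.

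Recovered library totals ran from 38290273 to 39772245 reads in groups A and D and from 29112016 to 34908553 reads in groups B and C, so counting precision was lower with Cu/ES. The median log2 fold change of the 10615 genes was -1.10 in group B vs. A and -1.13 in group C vs. D, against -0.03 in C vs. B and -0.01 in D vs. A. Of 17 hepatocyte markers, 14 had a row. Of these, 6 were listed at 0 in all 3 libraries of group A, 0 in B, 2 in C and 8 in D, and 11, 7, 7 and 10 had a mean under 0.1 FPKM. Albumin (Alb), the defining secreted product of hepatocytes, was at 0 in every library of groups A, C and D and reached a mean of 0.0463 FPKM in group B. The keratins Krt18 (mean 285 FPKM in group A) and Krt19 (268 FPKM), the second of them a cholangiocyte marker, were abundant. Afp, a fetal hepatocyte product, had a mean of 2.56 FPKM in group A and 19.2 in B, and Apoa1 0.00863 and 1.86 FPKM. Most secreted hepatocyte products were thus absent or near 0 in untreated cells, and the factors below are described by name and not as evidence of hepatocyte identity.

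The 250 bases before the annotated start of 4 factors are shown because these genes went in opposite directions with Cu/ES: in FPKM, Cebpb and Foxa1 were higher, and Cebpa and Foxa2 were lower. The sequences are from RefSeq on GRCm38.p6 and were matched by symbol, since the submitters' processing notes name GRCm39 and no genome of that build was used here. All 6 factors matched. The windows are chr2:167688665-167688914 on the plus strand for Cebpb, chr7:35119043-35119292 on the plus strand for Cebpa, chr2:148046970-148047219 on the minus strand for Foxa2 (the outermost of 3 annotated starts) and chr12:57546112-57546361 on the minus strand for Foxa1 (the 1 start given in the table of promoters, while the RefSeq span of the gene reaches farther upstream). Capitals mark every match, on either strand, to 7 short motifs: the core promoter motif TATAAA, the NF-Y motif CCAAT, the half-site TGACG of the cAMP response element, the heat shock element GAANNTTC, the pattern TGCNCNC (looser than the metal response element), the FOXA site TGTTTAC and the C/EBP site TTGCNNAA. No match overlapped another.
Cebpb: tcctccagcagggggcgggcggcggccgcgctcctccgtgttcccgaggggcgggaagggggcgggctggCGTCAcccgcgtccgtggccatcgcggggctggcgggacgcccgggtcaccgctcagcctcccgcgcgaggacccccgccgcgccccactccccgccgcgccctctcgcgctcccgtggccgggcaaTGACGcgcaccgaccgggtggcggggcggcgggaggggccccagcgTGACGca
Cebpa: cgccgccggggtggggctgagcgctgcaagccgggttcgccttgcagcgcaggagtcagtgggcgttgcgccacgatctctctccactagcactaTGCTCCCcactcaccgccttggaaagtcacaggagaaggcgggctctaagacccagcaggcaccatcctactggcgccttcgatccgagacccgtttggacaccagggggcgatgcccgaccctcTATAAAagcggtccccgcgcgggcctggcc
Foxa2: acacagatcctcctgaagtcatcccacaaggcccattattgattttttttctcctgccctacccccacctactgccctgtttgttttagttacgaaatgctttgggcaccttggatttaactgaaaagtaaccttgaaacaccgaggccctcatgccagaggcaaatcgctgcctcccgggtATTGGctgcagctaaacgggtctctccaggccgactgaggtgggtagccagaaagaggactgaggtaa
Foxa1: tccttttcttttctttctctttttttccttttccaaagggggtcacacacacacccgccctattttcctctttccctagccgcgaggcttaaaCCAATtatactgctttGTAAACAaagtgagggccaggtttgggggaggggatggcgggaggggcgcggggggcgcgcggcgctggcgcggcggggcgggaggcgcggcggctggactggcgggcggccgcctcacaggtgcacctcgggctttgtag

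The Cebpb window held 3 cAMP half-sites, beginning 180, 53 and 7 bases before the start, and neither the core promoter nor the NF-Y motif. At least 1 cAMP half-site was present in 17.8% of 27025 promoters of this length, and the share with 3 was not counted. The Cebpa window held the core promoter motif 30 bases before the start, found in 13.0% of promoters. It also held 1 match (TGCTCCC) to the loose pattern TGCNCNC, found in 43.8%. The Foxa2 window held the NF-Y motif only, a motif of 34.5% of promoters. The Foxa1 window, which lies inside the RefSeq span of the gene, held the NF-Y motif and a FOXA site 141 bases before the start given. A FOXA site was present in 3.06% of promoters. Neither a heat shock element (6.79% of promoters) nor a C/EBP site (9.55%) was matched in the windows of the 6 factors. The GC content was 81.6% for Cebpb, 66.4% for Cebpa, 62.0% for Foxa1 and 50.8% for Foxa2, against a median of 52.0% over all promoters. These matches describe letters in a window and not binding.

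In untreated cells Cebpb was the most abundant of the factors. Its FPKM was 56.6, 51.8 and 63.9 in the libraries of group A. Foxa2 followed at 4.37, 5.52 and 4.78 FPKM. Cebpa had 1.52, 1.92 and 1.39 FPKM, and no library of one gene reached the range of the next. Foxa1 had 0.274, 0.275 and 0.269 FPKM, from 54, 55 and 54 reads. Foxa3 was measured at 0.115, 0.101 and 0.0502 FPKM, from 9, 8 and 4 reads. Hnf4a had no read in the 3 libraries, which allows a level of up to 0.00548 FPKM over the group (3 reads; counting error only). The order of the means was the same in groups B and D. In groups B and C the libraries of Cebpa and Foxa1 overlapped, with Foxa1 having the higher mean in C, and in group D those of Foxa1 and Foxa3 overlapped.

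**Figure D1:**
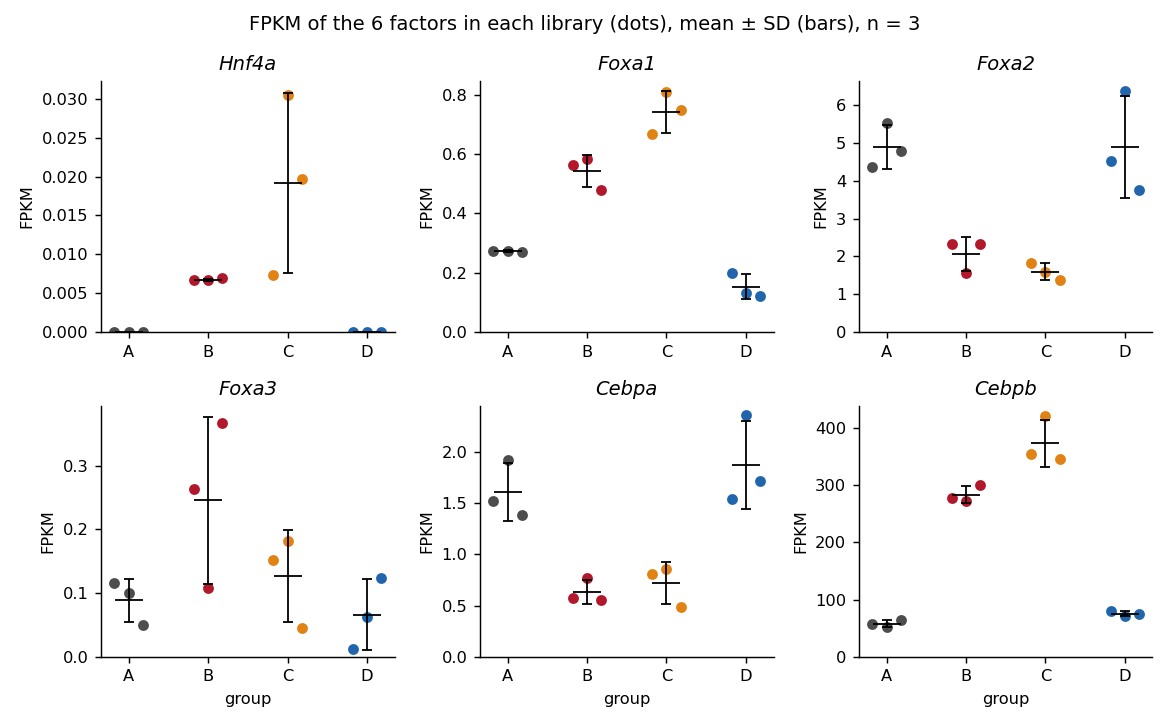
FPKM (vertical axes, each from 0 and on its own scale) of 6 factors in groups A to D; dots are libraries and bars the mean ± SD of n = 3. Cebpb and Foxa1 sit higher in every library of groups B and C than in every library of A and D, and Foxa2 and Cebpa sit lower; the Hnf4a values above 0 rest on 1 to 5 reads each.

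Cu/ES was assessed by comparing group B with A, and again, in other libraries, group C with D. Cebpb rose in both comparisons. Foxa2 and Cebpa were lower in both in the deposited FPKM, but not after median-ratio or quantile scaling. In a fit of log2(FPKM + 1) by limma, 1 of the 3 tested factors, Cebpb, passed both thresholds in the higher direction in group B vs. A (a log2 fold change above 1 in size, at an adjusted p below 0.05), and 10.1% of all genes tested did. None passed both in the lower direction, in which 53.0% of all genes did, but Foxa2 and Cebpa passed both with a pseudocount of 0.1, in TPM and in limma-voom on recovered reads. In group C vs. D, Cebpb was higher and Foxa2 lower past both thresholds, against 11.2% and 53.3% of all genes.

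Cebpb stood at 277, 273 and 300 FPKM in the libraries of group B, from 13247 to 14035 reads each, and at 51.8 to 63.9 FPKM in group A. The groups were far apart, with no library between them. The log2 fold change was 2.29 (SE 0.09, limma adjusted p = 6.98e-12), the 251st highest of 10615 genes. In group C Cebpb had 354, 421 and 345 FPKM and in group D 80.2, 72.0 and 74.0 FPKM. The log2 fold change of group C vs. D was 2.29 (SE 0.09, limma adjusted p = 6.21e-12). By mean FPKM Cebpb ranked 1092nd of 24824 genes in group A, 252nd in B, 194th in C and 828th in D. Cebpb has a single exon and no overlapping gene in the annotation.

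Foxa2 had 2.33, 1.56 and 2.32 FPKM in the libraries of group B, all below the lowest library of group A (4.37). Its log2 fold change was -0.95 (SE 0.15, limma adjusted p = 3.45e-05), with a median of all genes of -1.10. In group C Foxa2 had 1.83, 1.60 and 1.38 FPKM, and in group D 4.53, 6.39 and 3.77. The libraries of C lay below those of D without overlap, and the log2 fold change was -1.16 (SE 0.15, limma adjusted p = 4.31e-06). The fold threshold of 1 fell within the reach of single libraries: without library D2 the log2 fold change of C vs. D was -0.98, and without A1, B1 or B3 that of B vs. A was -1.01.

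Cebpa had 0.575, 0.771 and 0.555 FPKM in group B (45 to 65 reads), each below the lowest library of group A (1.39). Its log2 fold change was -0.67 (SE 0.12, limma adjusted p = 1.33e-04). In group C Cebpa had 0.808, 0.858 and 0.482 FPKM, and in group D 1.54, 2.36 and 1.72 FPKM. The log2 fold change of group C vs. D was -0.74 (SE 0.12, limma adjusted p = 5.41e-05). Cebpa passed the filter on its mean over all libraries through groups A and D, since all 6 libraries with Cu/ES were under 1 FPKM. At this level the pseudocount of 1 makes up much of each value. With a pseudocount of 0.1 the log2 fold change of group B vs. A was -1.22 for both Cebpa and Foxa2, with 56.9% of all genes lower past both thresholds. In TPM it was -1.18 for Cebpa and -1.42 for Foxa2 (63.3% of all genes), and in limma-voom -1.34 and -1.26 (57.3%).

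By adjusted p alone, Foxa2 and Cebpa counted as lower in group B vs. A together with 72.0% of all genes tested. Both calls depended on the scaling. After median-ratio scaling, which centres the middle gene near 0, the log2 fold change of group B vs. A was 0.02 for Foxa2 (limma adjusted p = 0.884) and -0.03 for Cebpa (adjusted p = 0.842), and after quantile normalization it was 0.41 (adjusted p = 0.0183) and 0.26 (adjusted p = 0.107). In group C vs. D the values were -0.24 for Foxa2 and -0.07 for Cebpa after the first scaling and 0.13 and 0.12 after the second (limma adjusted p from 0.146 to 0.625). Cebpb was higher under every scaling, with a log2 fold change of 1.93 in TPM, 2.12 after quantile normalization and 3.56 after median-ratio scaling. In bulk RNA, fewer cells of a type and less RNA per cell cannot be told apart.

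**Figure D2:**
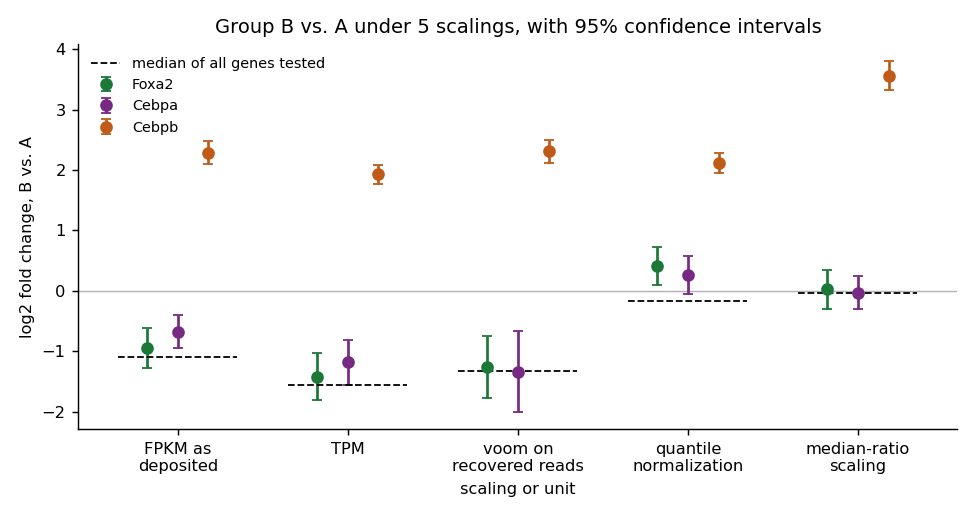
Log2 fold change of group B vs. A (vertical axis) for Foxa2, Cebpa and Cebpb under 5 scalings or units; points are fitted values with 95% confidence intervals and dashed lines the median of all genes tested. Foxa2 ranges from -1.42 in TPM to 0.41 after quantile normalization and Cebpa from -1.34 in limma-voom to 0.26 after quantile normalization, whereas Cebpb stays at 1.93 or above.

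As a result of these differences the balance within each family shifted in every library with Cu/ES. The ratio of Cebpb to Cebpa FPKM, which no factor applied to a whole library can change, was 36.8 ± 9.54 in group A, 459 ± 95.9 in B, 548 ± 148 in C and 42.0 ± 10.9 in D (mean ± SD, n = 3). The lowest ratio with Cu/ES was 354 and the highest without it 52.2. Foxa2 made up 93.1 ± 1.08% of the summed FPKM of the 3 Foxa genes in group A, 72.1 ± 2.47% in B, 64.8 ± 3.80% in C and 95.5 ± 1.59% in D. The share of Foxa1 was 5.23 ± 0.55% in group A, 19.7 ± 5.62% in B, 30.3 ± 4.60% in C and 3.11 ± 1.10% in D. The summed FPKM of the 3 genes was 5.25 ± 0.58 in group A and 2.86 ± 0.53 in B.

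**Figure D3:**
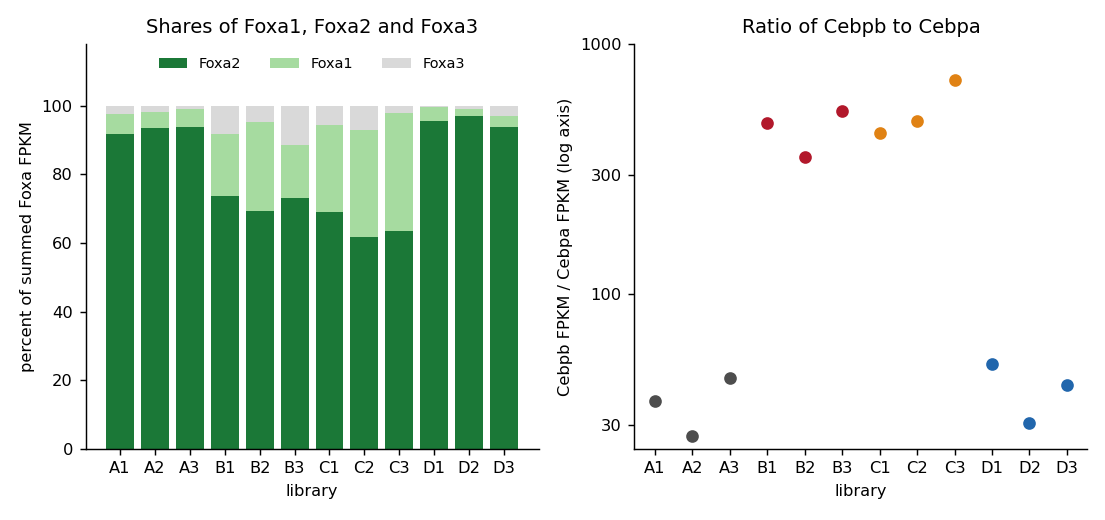
Left, percent of the summed Foxa FPKM taken by Foxa2, Foxa1 and Foxa3 in each of 12 libraries (bars from 0); right, ratio of Cebpb to Cebpa FPKM in each library on a log axis. With Cu/ES (libraries of B and C) Foxa2 takes 61.7% to 73.8% and without it 91.8% to 97.0%, and the ratio separates 354 to 717 from 27.0 to 52.2.

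Foxa1, Foxa3 and Hnf4a, below the filter, were described by their reads. Foxa1 had 0.565, 0.584 and 0.480 FPKM in group B (92, 96 and 76 reads), 0.668, 0.808 and 0.747 in group C (100, 145 and 124 reads) and 0.201, 0.133 and 0.123 in group D (41, 27 and 25 reads). No library of one group overlapped another group, in the order D, A, B and C. How many of all genes separated in this way was not counted, so it is not read as a trait of Foxa1. On reads recovered from the FPKM values and with no filter (22212 genes, limma-voom), Foxa1 was higher in group B vs. A by 0.99 on the log2 scale (SE 0.27, adjusted p = 0.00429), a call by adjusted p alone that 22.7% of all genes shared. In group C vs. D it was higher by 2.30 (SE 0.29, adjusted p = 3.76e-06), and 22.9% of all genes were higher past both thresholds. The gene Ttc6 overlaps Foxa1 in the annotation, and its mean went from 0.00125 FPKM in group A to 0.00923 in B and 0.0205 in C. Its part in the Foxa1 value was not tested.

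Foxa3 had 0.263, 0.107 and 0.367 FPKM in group B, 0.152, 0.183 and 0.0456 in C and 0.0123, 0.0622 and 0.124 in D. These values rested on 1 to 23 reads a library and overlapped between the groups in all 4 comparisons. The limma-voom log2 fold change of group B vs. A was 1.32 (95% confidence interval -0.23 to 2.88, adjusted p = 0.122), so a difference was not detectable at this depth.

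Hnf4a had 1 read in each library of group B, and 1, 5 and 3 reads in the libraries of group C. In groups A and D it had none in any library. Pooled over the libraries of group C, 9 reads gave 0.0199 FPKM (exact Poisson 95% interval 0.00908 to 0.0377, counting error only). This estimate was 3.62 times the level of 3 reads in group A and 3.70 times that in group D. Neither ratio is a lower bound, since the counting error of group C is left out. No fold is given for group B, where the sum was 3 reads. The same pattern, no read in groups A and D and at least 1 in every library of B and C, was found for 635 of the 4668 genes without a read in A and D, or 13.6%. Hnf4aos, a noncoding RNA that overlaps Hnf4a, was at 0 in 11 libraries and had 0.0367 FPKM in the third library of group C.

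TCA on top of Cu/ES was assessed by comparing group C with B, and TCA alone by comparing D with A. None of the tested factors passed both thresholds in either comparison, as against 2.29% of all genes in C vs. B and 0.217% in D vs. A. By adjusted p alone Cebpb was higher in both. Its log2 fold change was 0.39 in group C vs. B (SE 0.09, limma adjusted p = 0.00295), a direction and call shared by 20.4% of all genes. In group D vs. A it was 0.39 (SE 0.09, limma adjusted p = 0.00784), shared by 10.5%. All 3 libraries of C lay above those of B (lowest 345 FPKM against highest 300), and all 3 of D above those of A (lowest 72.0 against highest 63.9).

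Foxa2 and Cebpa did not pass in these comparisons. For Foxa2 the log2 fold change was -0.23 in C vs. B (95% confidence interval -0.56 to 0.10, limma adjusted p = 0.243) and -0.02 in D vs. A (-0.35 to 0.31, adjusted p = 0.955). For Cebpa it was 0.07 (-0.20 to 0.33, limma adjusted p = 0.701) and 0.13 (-0.13 to 0.40, adjusted p = 0.486). The libraries of both genes overlapped between the groups.

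Whether TCA acted differently with and without Cu/ES was tested by the interaction. None of the tested factors passed it, and 37.5% of all genes did. For Cebpb the estimate was 0.00 with a 95% confidence interval of -0.27 to 0.27 (limma adjusted p = 0.996). It was -0.21 for Foxa2 (-0.67 to 0.25) and -0.07 for Cebpa (-0.44 to 0.31). Foxa1 had higher FPKM in all libraries of C than in all of B and lower FPKM in all libraries of D than in all of A. In limma-voom without a filter its log2 fold change was 0.45 in C vs. B (SE 0.23, adjusted p = 0.185; 11.5% of all genes were higher by adjusted p) and -0.86 in D vs. A (SE 0.33, adjusted p = 0.112; 6.14% were lower). The interaction was 1.32 (SE 0.40, adjusted p = 0.0385), and 14.6% of all genes passed it. Comparisons B vs. A and D vs. A share the libraries of group A, and B vs. A and C vs. B share those of group B.

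**Figure D4:**
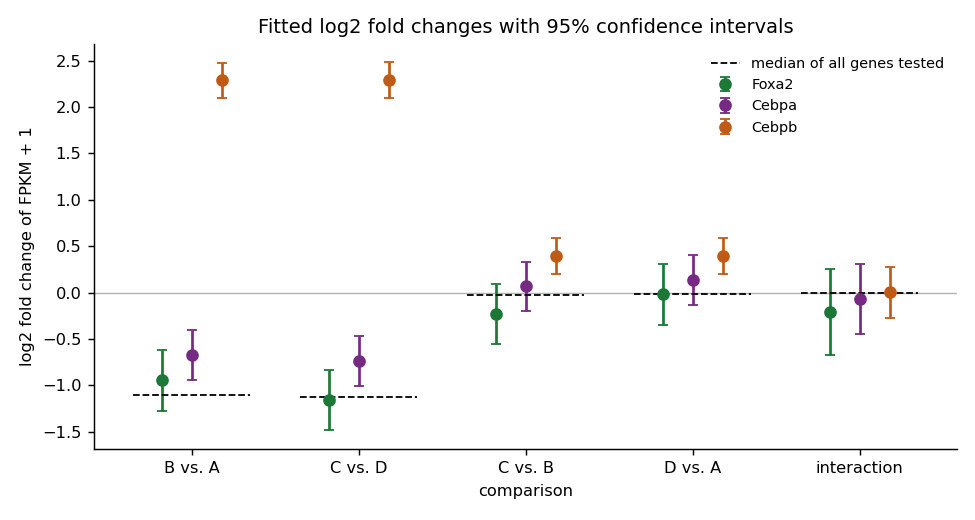
Log2 fold change of FPKM + 1 (vertical axis) for Foxa2, Cebpa and Cebpb in 4 comparisons and the interaction; points are fitted values with 95% confidence intervals and dashed lines the median of all genes tested. Cebpb is at 2.29 in both comparisons of Cu/ES and at 0.39 in both of TCA; the 3 intervals of the interaction include 0.

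By an exact two-sided permutation test of single genes, 3 libraries against 3 cannot go below p = 0.1. That value was reached by Cebpb and Foxa1 in all 4 comparisons, and by Foxa2 and Cebpa in B vs. A and C vs. D. Hnf4a, on 1 to 5 reads, reached it in every comparison but D vs. A. In C vs. B the Hnf4a separation followed library size, since library C1 and each library of B had 1 read. How many of all genes reached this value is not given, so it is not read as a trait of these factors. In limma, 9777 of 10615 genes passed the adjusted p in B vs. A.

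The C/EBP proteins bind as dimers with other leucine zipper proteins, and the Tribbles proteins TRIB1 and TRIB2 guide CEBPA to degradation. Of 10 genes of the family and its partners, 9 were tested in group B vs. A. Of these 2 rose and 4 fell past both thresholds, against 10.1% and 53.0% of all genes. The median of the list was -0.80 on the log2 scale against -1.10 over all genes. Trib1 rose from 10.5 ± 1.24 to 34.8 ± 1.98 FPKM (log2 fold change 1.64, SE 0.11). Cebpz, a CCAAT-binding protein that is no leucine zipper, rose from 22.8 ± 0.99 to 67.9 ± 2.22 FPKM (1.53, SE 0.06). Cebpd, a family member of the acute phase response, fell from 10.6 ± 1.24 to 0.0791 ± 0.0442 FPKM, with 2 to 8 reads left in each library of group B. Cebpd and Trib2 averaged under 1 FPKM in both groups with Cu/ES and passed the filter through groups A and D. Atf5 fell from 51.2 ± 7.65 to 4.38 ± 0.66 FPKM, Trib2 from 7.29 ± 0.43 to 0.323 ± 0.117 and Trib3 from 93.6 ± 6.24 to 17.3 ± 1.27. Ddit3, which encodes the stress factor CHOP, had 35.1 ± 0.89 FPKM in A and 53.3 ± 4.02 in B and did not pass the fold threshold (log2 fold change 0.59, SE 0.11). In group D vs. A, 1 of the 9 passed both thresholds, against 0.217% of all genes: Atf5 rose to 130 ± 9.66 FPKM (log2 fold change 1.33, SE 0.11, limma adjusted p = 1.23e-05). By adjusted p alone 5 were higher and 2 lower in that comparison, against 10.5% and 11.5% of all genes.

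Of 21 other forkhead genes, 16 were tested in group B vs. A. Of these 1 rose and 7 fell past both thresholds, against 10.1% and 53.0% of all genes. Their median log2 fold change was -0.71, against -1.10 over all genes. Foxn2 rose from 8.75 ± 0.56 to 19.6 ± 1.34 FPKM (log2 fold change 1.08, SE 0.11). Foxj2 fell from 6.75 ± 0.78 to 0.345 ± 0.124 FPKM, Foxp4 from 26.1 ± 1.34 to 4.04 ± 0.27 and Foxo4 from 5.22 ± 0.58 to 0.226 ± 0.0958. Foxo3, a forkhead gene held back by insulin signalling, fell from 9.97 ± 2.20 to 2.16 ± 0.19 FPKM. After median-ratio scaling 4 were higher and 3 lower (25.9% and 25.5% of all genes), and after quantile normalization also 4 and 3 (20.0% and 25.1% of all genes). Of the 7 that fell, Foxj2 and Foxo4 averaged under 1 FPKM in both groups with Cu/ES and passed the filter through groups A and D.

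Of 32 other liver transcription factors, 30 had a row and 15 were tested. In group B vs. A 0 rose and 9 fell past both thresholds, against 10.1% and 53.0% of all genes. The median log2 fold change was -1.48 (limma, where 14 were lower and 0 higher by adjusted p alone, against 72.0% and 20.1% of all genes). Hhex, needed for liver bud growth, fell from 9.02 ± 1.16 to 0.608 ± 0.344 FPKM. Nr2f6 fell from 9.79 ± 0.60 to 0.802 ± 0.203 FPKM, Esrra from 13.0 ± 0.77 to 1.995 ± 0.63 and Rxrb, a partner of many nuclear receptors, from 28.9 ± 1.69 to 5.34 ± 0.25. Of the 9, 5 (Hhex, Nr2f1, Nr2f2, Nr2f6 and Tbx3) averaged under 1 FPKM in both groups with Cu/ES and passed the filter through groups A and D. After median-ratio scaling 5 of the 15 were lower and 1 higher, and after quantile normalization 4 and 1, with the shares of all genes as given for the forkhead genes. Onecut2, of the same family as Onecut1, was under the filter, with 1.30 ± 0.22 FPKM in group A (611 to 827 reads a library) and 0.169 ± 0.029 in B (63 to 86 reads).

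Most genes known as targets of HNF4A were at or near 0. Of 22, 13 had a row, and 9 of these were at 0 in all libraries of group A, 2 in B, 0 in C and 10 in D. Only Mttp, which loads lipid onto lipoproteins, was tested, with 1.89 ± 0.36 FPKM in A and 0.753 ± 0.110 in B (log2 fold change -0.71, SE 0.11). Under the filter, Apoa1 went from a mean of 0.00863 FPKM in A to 1.86 in B and Trf from 0.00741 to 0.718. Apoa2 alone among these was lower in B, with 1.06 FPKM in A and 0.714 in B. Of 17 acute phase genes, many of them driven by C/EBP proteins in liver, 5 were tested in group B vs. A. Of these 1 rose and 3 fell past both thresholds, against 10.1% and 53.0% of all genes. Hpx, which binds free heme, rose from 0.325 ± 0.127 to 3.84 ± 0.56 FPKM, and Lcn2, C3 and Cp fell by 2.73, 2.36 and 2.25 on the log2 scale. Of the 17 hepatocyte markers 4 were tested, of which Afp (log2 fold change 2.53) and Asgr1 (2.16) rose and Krt18 (-1.79) fell, against the same shares of all genes. The other, Krt8, did not pass the fold threshold (-0.90). It was lower by adjusted p alone (limma adjusted p = 1.40e-07), as were 72.0% of all genes. Hpx and Asgr1 averaged under 1 FPKM in groups A and D and passed the filter through the groups with Cu/ES, where they were high.

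**Figure D5:**
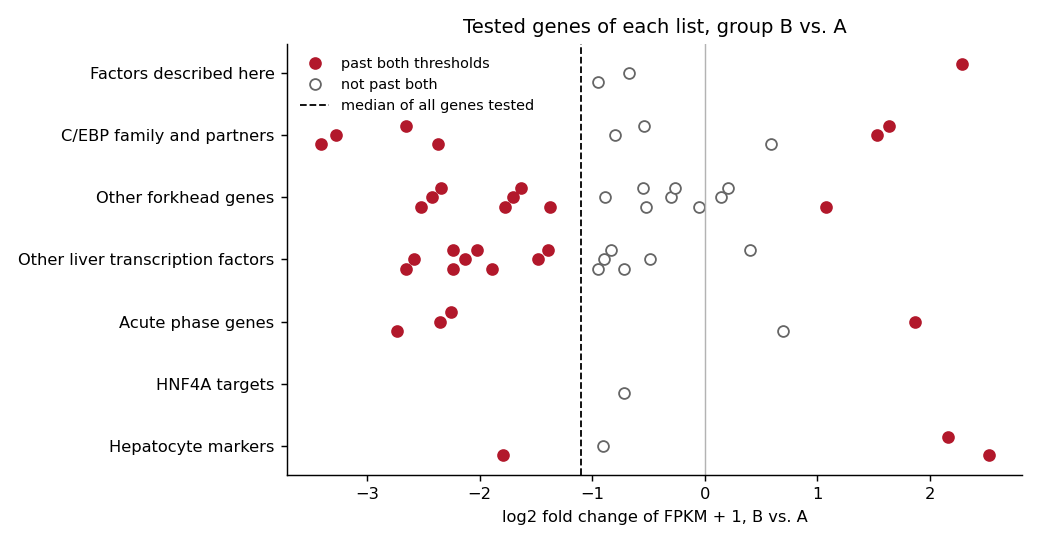
Log2 fold change of FPKM + 1 in group B vs. A (horizontal axis) for the tested genes of each list (rows); filled dots passed both thresholds and the dashed line is the median of all 10615 genes, -1.10. The 15 other liver transcription factors lie mostly left of 0, and Cebpb is the single filled dot of the top row.

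Markers of other cells moved with Cu/ES as well. In group B vs. A, 10.1% of all genes rose and 53.0% fell past both thresholds. The 4 tested markers of stellate cells or fibroblasts all fell in group B vs. A, led by Col3a1, which fell by 5.43 on the log2 scale. The summed level of the list was 2119 to 2339 FPKM in A and 298 to 354 in B. It was 154 to 196 FPKM in C and 1814 to 1936 in D. Most of this sum was Vim, with means of 2080 FPKM in A, 330 in B, 168 in C and 1714 in D. Under the filter, Acta2 went from 0.00604 FPKM in A to 0.360 in B and Col1a2 from 0.0116 to 0.0508. Pdgfrb went the other way, from 0.907 to 0.00875 FPKM. Of 4 tested cholangiocyte markers 2 rose, Sox9 by 2.19 and Cftr by 1.32, and Krt19 fell by 1.78. The summed level of that list was 920 to 1004 FPKM in A, 1242 to 1406 in B, 739 to 953 in C and 743 to 790 in D. Most of that sum was Spp1, with means of 673 FPKM in A, 1190 in B, 682 in C and 560 in D. Spp1 did not pass the fold threshold in B vs. A (log2 fold change 0.82). Cd68, the 1 tested of 6 macrophage markers, fell by 1.71, and of 2 tested endothelial markers Pecam1 rose by 2.65 and Cdh5 did not pass (log2 fold change 0.15, limma adjusted p = 0.349). Cftr and Pecam1 averaged under 1 FPKM in groups A and D and passed the filter through the groups with Cu/ES, and Des, a stellate cell marker, through the groups without it. The part of these shifts in the values of the lineage factors was not tested.

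The genes whose levels ran most like those of the tested factors were found by the root mean square difference of log2(FPKM + 1), centred on group A, over 12 libraries, among genes of similar level. For Cebpb they were Psmd13 (0.155) and Zwint (0.157), for Foxa2 Zfx (0.125) and Btrc (0.150), and for Cebpa Shq1 (0.108) and Atxn7 (0.109).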

How the data were processed

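AML12 cells in 4 groups of 3 libraries were analysed, grouped by the sample labels. The authors deposited FPKM values per library, made from polyadenylated RNA sequenced on an Illumina NovaSeq instrument. The submitters' processing notes name fastp, HISAT2, HTSeq and GRCm39, and the paper compared groups with DESeq2.

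The fit, by limma (version 3.58.1, R version 4.3.3), took log2(FPKM + 1) of every gene averaging 1 FPKM or more and covered all 12 libraries (empirical Bayes with a mean-variance trend, two-sided p-values, Benjamini-Hochberg adjustment over 10615 genes). FPKM spacing gave back whole reads for 22212 of 22212 genes above 0 in at least 2 libraries (tolerance 0.02 read). On these reads, limma-voom called 1211 genes higher and 6078 lower in group B vs. A at the main filter. Fold changes on the log2(FPKM + 1) scale understate those of low genes, and intervals from reads cover counting error only.

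The factors, gene lists and motifs were chosen with earlier results of these data known. Named genes were the factors, up to 4 called genes per list with the largest change in B vs. A, called marker genes, and the 2 genes most like each tested factor. Genes outside this rule (Alb, Apoa1, Apoa2, Trf, Krt8, Spp1, Acta2, Col1a2, Pdgfrb, Cdh5, Nr2f1, Nr2f2, Tbx3, Ddit3, Trib1, Cebpz, Foxn2, Onecut2, Ttc6, Hnf4aos, Mttp and Atf5 in D vs. A) were named after their values were seen. Deviations from the group means correlated with r over 0.1 in all 3 same-numbered pairs of groups A and B (r from 0.142 to 0.174). In groups A and D, r was 0.087, 0.579 and 0.302. The replicate numbers in the labels may thus pair the libraries of these groups. In C vs. B and C vs. D, r was not over 0.1 in all pairs. The replicate block changed no count of factors called. The fit and read recovery were tested on simulated data. Alternatives were another pseudocount or filter, 3 scalings, a replicate block, no trend, only the groups compared, limma-voom and each library left out. Tables and plots were made in Python 3.11.15 (pandas 2.3.3, matplotlib 3.10.9).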

Additional observations from a re-analysis of the deposited data

Results flagged for a closer look

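Foxa1 went in opposite directions with TCA in the presence and absence of Cu/ES. Its FPKM was higher in all 3 libraries of group C than in all 3 of group B, and lower in all 3 libraries of group D than in all 3 of group A. How many of all genes showed such a separation was not counted. The interaction in limma-voom on recovered reads was 1.316 on the log2 scale (adjusted p = 0.0385). The values rest on 25 to 145 reads a library, and neither of the component comparisons passed in limma-voom (adjusted p = 0.185 in C vs. B and 0.112 in D vs. A). In limma on log2(FPKM + 1) without a filter, C vs. B passed (adjusted p = 0.0167) and D vs. A did not (0.0713).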

How the results depend on the processing

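The number of factors past both thresholds in group B vs. A, 1 as reported, was 3 with a pseudocount of 0.1, in TPM and in limma-voom, and 4 in limma-voom without a filter, where Hnf4a was added on 3 reads. In group C vs. D the 2 became 1 after median-ratio scaling and after quantile normalization. They also became 1 with a filter of mean FPKM 5, which left Foxa2 and Cebpa untested. The number was 3 with a pseudocount of 0.1, in TPM and in limma-voom, where Cebpa was added, and 5 in limma-voom without a filter. For the interaction, 1 factor (Foxa1) passed without a filter, in limma as in limma-voom. Leaving out each library in turn gave 1 to 2 factors in B vs. A (2 without A1, B1 or B3, where Foxa2 was at -1.01) and 1 to 2 in C vs. D (1 without D2, where Foxa2 was at -0.98). Cebpb kept its direction and its side of the adjusted p in B vs. A, C vs. D, C vs. B and D vs. A under all 23 alternatives, with a highest adjusted p of 0.0386 in D vs. A.

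Signs changed in group B vs. A for Foxa2, to 0.02425 after median-ratio scaling and 0.4111 after quantile normalization, and for Cebpa, to 0.2611 after the latter. In C vs. D quantile normalization gave 0.1258 for Foxa2 and 0.1207 for Cebpa. These scalings move the middle gene by construction. Estimates near 0 also changed sign: Foxa2 in D vs. A (0.01405 and 0.05897 after these scalings, -0.1938 to 0.1221 with a library left out), Cebpa in the interaction (-0.1508 to 0.0518 with a library left out) and Cebpb in the interaction (-0.003111 with the other pseudocount, -0.02208 and -0.01661 after these scalings, -0.002426 in limma-voom, -0.08737 to 0.07182 with a library left out).

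Libraries of the same replicate number had r over 0.1 in all 3 pairs of groups A and B but not in all pairs of the other comparisons (11 of 18 pairs in all, mean 0.125). In groups A and D the values were 0.087, 0.579 and 0.302. With the number as a replicate block, Cebpb in B vs. A was 2.29 (limma adjusted p = 1.29e-10) and the counts of factors past the thresholds were 1, 0, 0, 2 and 0 in B vs. A, C vs. B, D vs. A, C vs. D and the interaction. Depth limits Hnf4a and Foxa3, which rest on at most 5 and 23 reads a library.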
